A study of Physcomitrium patens with 5 samples.

Results

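Partial rehydration was compared with the hydrated state in the moss Physcomitrium patens, in its leafy shoots (gametophores), by the differentially methylated regions that the authors listed between those libraries. Members were all genes with an entry for this comparison in the authors' deposited table, which were 46 of its 225 genes, and a region that neighbouring genes share counts as 1. These genes held 40 regions, of 224 regions over the 4 comparisons of the table. The hydrated library came from hydrated plants and the partially rehydrated library from plants partly rewetted after dehydration, both from gametophores grown on BCD medium. No time, water content or plant number was given for either state. Other libraries came from moderately dehydrated, severely dehydrated and fully rehydrated plants, and all 4 comparisons used the same hydrated library. Each state had 1 library, so no test between states was possible, and every value below describes these libraries.

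Methylation of cytosine is a mark on DNA that plants set in CG, CHG and CHH contexts, where H is any base but G. In P. patens it lies mainly on transposable elements, and the bodies of most expressed genes carry little of it. Moss shoots can dry and recover, a process in which abscisic acid signalling, protective proteins and repair of the photosynthetic apparatus are known to take part. In bisulfite sequencing, unmethylated cytosines are read as thymines, so that the level of a region is the share of cytosine reads that stayed cytosine. In a bulk shoot sample, a small difference in all cells and a large difference in few cells cannot be told apart. A table of listed regions holds no marker by which the labelled tissue could be checked.

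For each region the authors' deposited table gave a place relative to the gene, a start and an end on a scaffold, a log2 ratio of methylation and a direction word. The place was the gene body or a flank of 2 kb on either side. The sources used here state neither the genome build nor the cytosine context nor the depth of the libraries, and scaffold positions are printed as listed. The table did not name the numerator of the ratio. On scaffold 439, from 50137 to 50554, partial and full rehydration had a region with the same ends, at log2 ratios of 2.42 and 2.12 in the authors' deposited table. If the hydrated library is the denominator, 6 whole-percent hydrated levels fit these values together, and if it is the numerator, 0 do. A negative ratio is therefore read as lower methylation than in the hydrated library. This direction rests on the reading of levels as whole percents. Gene names are the orthology definitions of the table, and 7 of the 19 definitions end in a further identifier that may stand for another protein. Those 7 belong to the genes Pp1s14_170V6, Pp1s95_7V6, Pp1s508_5V6, Pp1s15_392V6, Pp1s188_14V6, Pp1s471_2V6 and Pp1s471_4V6, whose identity is not settled.

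Most of the listed regions were less methylated in partially rehydrated than in hydrated shoots. Of the 40 regions, 35 were lower and 5 higher, or 87.5% lower (95% exact Clopper-Pearson interval 73.2 to 95.8, which covers counting error over the list only). By gene, 41 had a lower region, which is 18.2% of the 225 genes of the table, and 5 had a higher one, which is 2.22%. The number of genes that the authors tested is not given, so these shares are of listed genes and not of the genome. No gene was listed with both directions. In size, the log2 ratios had a median of 1.37, against 1.44 over all 224 regions of the table. Among the lower regions, 24 lay between 1 and 1.5 in size, 4 between 1.5 and 2, 5 between 2 and 3, and 2 above 3.

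**Figure D1:**
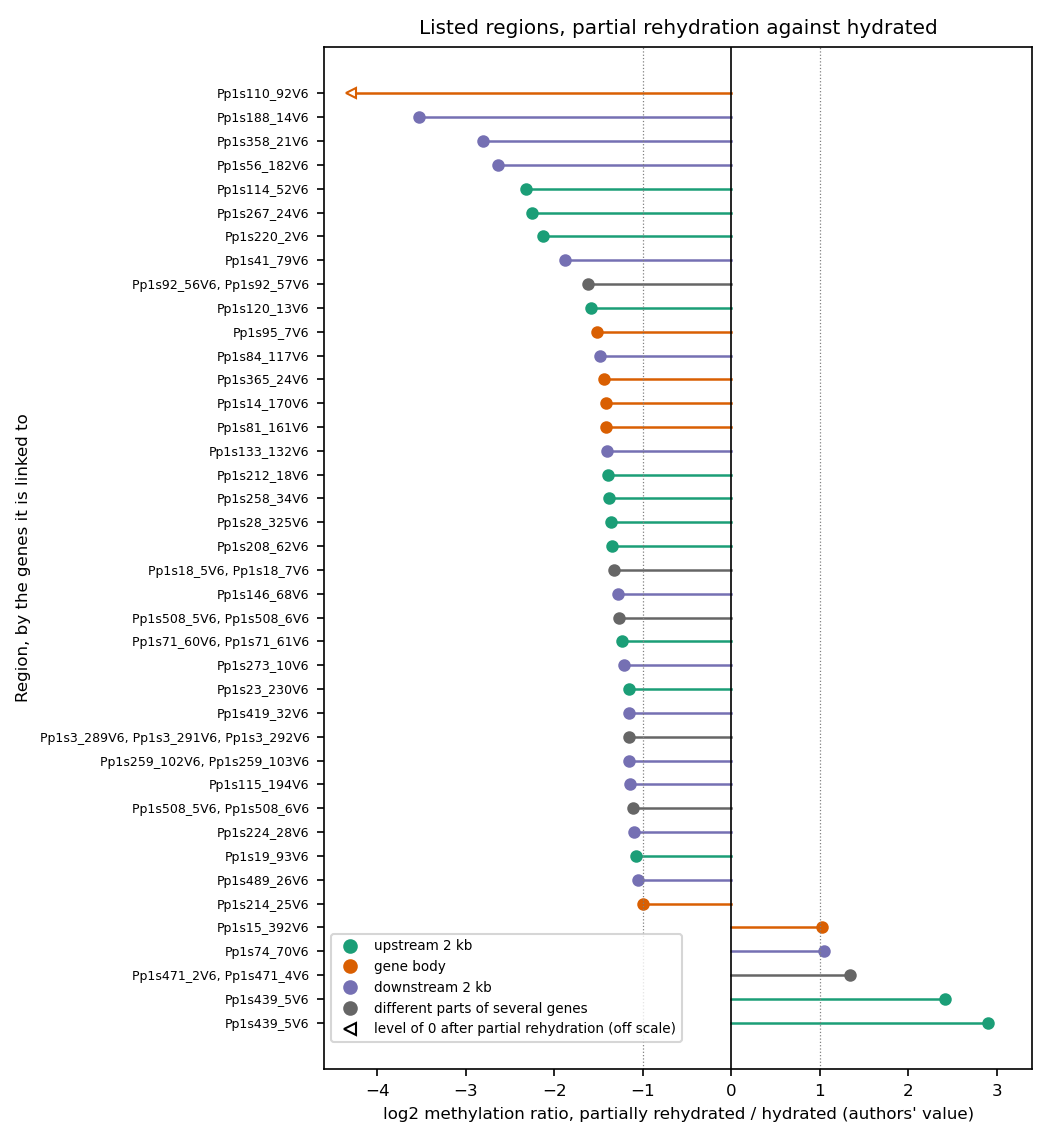
Log2 ratio of methylation, partially rehydrated over hydrated, for each of the 40 listed regions, ordered from the lowest to the highest and coloured by the place of the region relative to its gene. The 35 lower regions fill the left side and crowd near the dotted line at -1, and the 5 higher regions include both entries of Pp1s439_5V6; the open marker is a region with a level of 0, drawn off scale.

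The ratios held more than a fold change. Each of the 40 equalled the quotient of 2 levels in whole percents (relative tolerance 1e-09), once 0.001 stood in for a level of 0. For 11 regions only 1 pair of levels gave the ratio, and for the others the possible pairs are multiples of the smallest. In the 10 lower regions with 1 pair, the hydrated level ran from 39% to 96% with a median of 59%, and the partially rehydrated level from 0 to 43% with a median of 26.5%. Of these regions, 9 of the 10 kept a level above 0. The difference ranged from 27 to 53 percentage points. Where neither level is 0, a pair can be single only if a 2-fold higher hydrated level would exceed full methylation. The high hydrated levels of these regions thus follow from how they were chosen, which also sets a lower bound on their difference. These regions do not stand for the list. Over all 35 lower regions, every possible pair had a hydrated level of at least 30% in 18, and the smallest possible pair had one under 10% in 7.

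**Figure D2:**
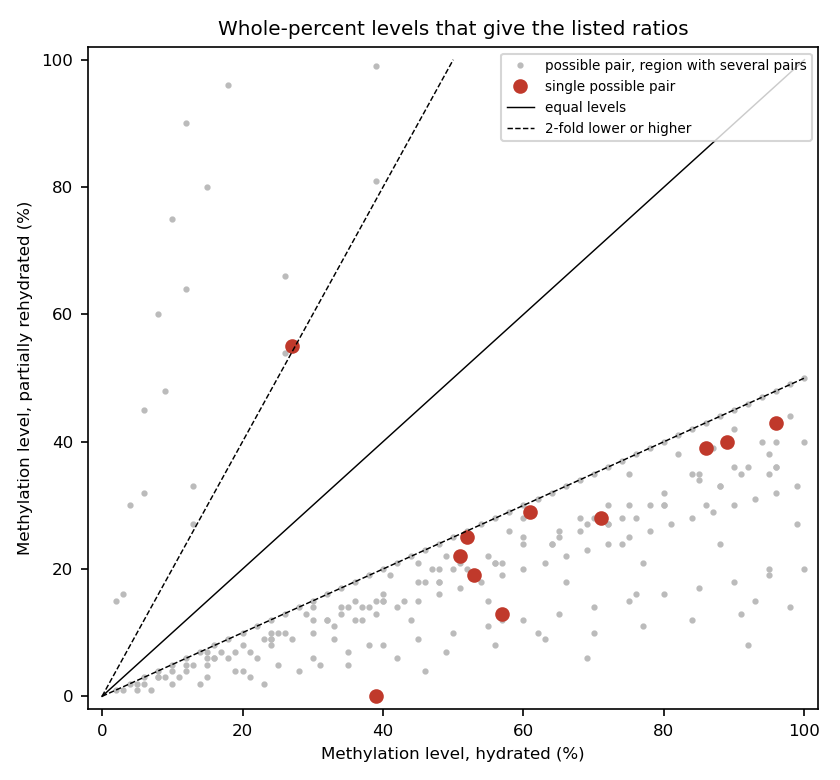
Methylation level after partial rehydration against the level in the hydrated library, in percent, for every whole-percent pair that gives a listed ratio. Red points are the 11 regions with 1 possible pair, grey points are the possible pairs of the other regions, and the lines mark equal levels and a 2-fold difference; the red points below the lines start at hydrated levels of 39% and reach 96%.

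Of the genes whose definition names an immune receptor, 4 of 4 were lower, beside 22 of all 26 annotated genes. In 3 of the 4 (Pp1s14_170V6, Pp1s95_7V6 and Pp1s508_5V6) the definition ends in a further identifier, so only Pp1s18_7V6 is defined as a receptor alone. Such receptors are proteins with a nucleotide-binding site and leucine-rich repeats, and RPS2 and RPM1 of Arabidopsis recognise bacterial effectors and set off local cell death. In the authors' deposited table, the body of the RPS2-like gene Pp1s95_7V6 stood at -1.52, on scaffold 95 from 12817 to 13055. Possible levels were 43% in the hydrated and 15% in the partially rehydrated library, or 86% and 30%. The body of a further RPS2-like gene, Pp1s14_170V6, held the longest region of this comparison, 867 bases on scaffold 14 (1087742 to 1088609), at -1.42 in the authors' deposited table, or 2.67-fold lower. Both of these regions lay in gene bodies. The longer one had 12 possible pairs of levels, from 8% and 3% to 96% and 36%. Upstream of the RPS2-like gene Pp1s18_7V6 the authors' deposited table gave -1.32, in a region that also lay in the body of the unannotated neighbour Pp1s18_5V6. That region had 20 possible pairs, from 5% and 2% to 100% and 40%. Downstream of the RPM1-like gene Pp1s508_5V6, 2 nested regions stood at -1.26 and -1.11 in the authors' deposited table. The inner one, on scaffold 508 from 8233 to 8481, had possible levels of 41% and 19%, or 82% and 38%. The outer one had 8 possible pairs, from 12% and 5% to 96% and 40%. Both lay in the body of the unannotated neighbour Pp1s508_6V6. These 4 genes thus held 5 regions at 4 loci with a median log2 ratio per gene of -1.37, close to that of all 26 annotated genes, -1.38.

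Genes with terms of gene regulation were listed in both directions. The EREBP-like gene Pp1s120_13V6 is of a plant family of transcription factors that includes ethylene and drought regulators. Its upstream flank was 3-fold lower, where the authors' deposited table gave -1.58 in a region of 200 bases. There, 33 pairs of levels were possible, from 3% and 1% to 99% and 33%, so the level is not known. Of 4 genes with the ontology term regulation of gene expression, 3 were lower and 1 higher, a split near that of all annotated genes (22 and 4). The lower ones had no orthology definition. Upstream of Pp1s267_24V6 the authors' deposited table gave -2.25. Downstream of Pp1s259_102V6, recovered levels were 89% in the hydrated and 40% in the partially rehydrated library. Downstream of Pp1s419_32V6, the authors' deposited table gave -1.16. The higher gene was Pp1s471_2V6, whose definition is telomeric repeat-binding factor 2, a protein that binds chromosome ends in mammals. Its region on scaffold 471 (13363 to 13636) lay downstream of it and upstream of the casein kinase 1 gene Pp1s471_4V6, which encodes a serine/threonine kinase, and stood at 1.34 in the authors' deposited table. Possible levels there were 13% in the hydrated and 33% in the partially rehydrated library, or multiples of these up to 39% and 99%.

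Genes for replication, RNA and translation had 1 lower member each. Downstream of Pp1s56_182V6, defined as origin recognition complex subunit 1, which binds replication origins, methylation was 6.2-fold lower, over 591 bases on scaffold 56 from 1277374 to 1277965. Possible levels were 31% and 5%, 62% and 10%, or 93% and 15%, so the region was methylated at 31% or more in the hydrated library. Downstream of an mRNA methyltransferase gene (Pp1s41_79V6), an enzyme that methylates adenosines in messenger RNA, it was 3.67-fold lower, with a smallest possible pair of 11% and 3%. In the body of the gene for the beta subunit of eIF-2 (Pp1s81_161V6), the factor that brings the initiator tRNA to the ribosome, the authors' deposited table gave -1.42. The ratio there is 3 to 8, and 12 pairs of levels allow it, so the level of this region is not known. Other genes had broader terms only. Pp1s114_52V6, with the terms DNA metabolic process and hydrolase activity, was 5-fold lower upstream. Its region had 20 possible pairs, from 5% and 1% to 100% and 20%. Pp1s273_10V6, with the term nucleic acid binding, stood at 51% in the hydrated and 22% in the partially rehydrated library in its downstream flank. Upstream of Pp1s28_325V6, whose term is binding, the authors' deposited table gave -1.35.

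Metabolic and transport genes held the most strongly lower region of an annotated gene and a higher one. In the downstream flank of the transporter gene Pp1s188_14V6, whose definition is a major facilitator carrier of the family that moves inorganic phosphate with sodium in animals, methylation was 11.5-fold lower. The smallest possible pair of levels there was 23% and 2% and the largest 92% and 8%. In the phenylpropanoid and flavonoid list, 1 gene was lower and 1 higher, both in the gene body. The chalcone synthase gene (Pp1s365_24V6), for the first committed enzyme of flavonoid synthesis, stood at -1.44 in the authors' deposited table, with a smallest possible pair of 19% and 7%. The p-coumarate 3-hydroxylase gene (Pp1s15_392V6), for a cytochrome P450 that hydroxylates phenylpropanoids, was higher, with 27% in the hydrated and 55% in the partially rehydrated library, on scaffold 15 from 2249385 to 2249684. It was the only higher region in a gene body. Upstream of a pectinesterase gene (Pp1s258_34V6), an enzyme that removes methyl esters from cell wall pectin, a region of 841 bases was 2.6-fold lower. The region upstream of the gene for PsbW (Pp1s71_61V6), a small subunit of photosystem II, also lay upstream of its neighbour Pp1s71_60V6. Possible levels were 47% and 20%, or 94% and 40%, and it was the only listed photosynthesis gene of this comparison.

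Motor, signalling and protease genes made up the rest of the annotated members. The 3 dynein heavy chain genes were lower, from 2 regions, where 41 of all 46 genes were lower. Dyneins are motors that walk along microtubules, and the axonemal kind drives flagella, which in mosses are found on sperm. A region on scaffold 92 from 561632 to 561934 lay in the body of the cytosolic dynein gene Pp1s92_56V6 and upstream of the next one, Pp1s92_57V6, with possible levels of 37% and 12%, or 74% and 24%. It is 1 region that counts for both genes. The body of the axonemal dynein gene Pp1s214_25V6 was exactly 2-fold lower in the authors' deposited table. This is the smallest difference listed, and no smaller one was listed. The region had 50 possible pairs of levels, from 2% and 1% to 100% and 50%. Upstream of a protein phosphatase gene (Pp1s212_18V6), which removes phosphate from serine and threonine, possible levels were 34% and 13%, or 68% and 26%. The peptidase gene Pp1s439_5V6, named so by its ontology term endopeptidase activity, held the 2 highest ratios of this comparison. Its upstream flank carried nested regions on scaffold 439, the outer at 2.42 from 50137 to 50554 and the inner at 2.91 from 50264 to 50485 in the authors' deposited table. The smallest possible levels of the inner region were 2% in the hydrated and 15% in the partially rehydrated library, and the largest 12% and 90%.

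The keyword lists were short, and 26 of the 127 annotated genes of the whole table belonged to this comparison. By definition or ontology term, 0 genes of this comparison matched the lists for late embryogenesis and dehydrin proteins, chaperones, hormone signalling, transcription factors, sugar and osmolyte metabolism, or transposable elements. In the whole table, hormone signalling matched 2 genes, transcription factors 3, sugar and osmolyte metabolism 3, and the other lists 0. A list with 0 genes in the whole table could match none here. Lists of 2 or 3 genes are too short to set against the share of all annotated genes, so these counts are not read as a result. The EREBP-like gene is a transcription factor by definition, but its entry lacks the words of that list. Of the 22 genes of the kinase and phosphatase list in the whole table, 3 were listed here, 2 lower and 1 higher. The RPM1-like gene was among the lower ones by its ontology terms. Of 7 redox genes and 6 ubiquitin and proteolysis genes in the whole table, 1 each was listed here. They were the p-coumarate 3-hydroxylase and the peptidase gene, both higher. The lipid list, with 7 genes in the whole table, matched Pp1s365_24V6 and Pp1s92_57V6 here, both lower. They matched through the word acyl in their terms, and neither is a lipid enzyme by definition. The motor list also matched Pp1s114_52V6, through the letters of actin in the word acting.

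Genes without annotation were 20 of the 46, of which 19 were lower and 1 higher. The body of Pp1s110_92V6 had a level of 39% in hydrated shoots and of 0, as listed, after partial rehydration, on scaffold 110 between 620907 and 621218. No fold is given for it, and it was the only region of this comparison with a level of 0. Downstream of Pp1s358_21V6 methylation was 7-fold lower, with a smallest possible pair of 7% and 1%. Upstream of Pp1s220_2V6, levels were 57% and 13%. Downstream of Pp1s84_117V6 they were 53% and 19%, and downstream of Pp1s133_132V6 the possible pairs were 37% and 14%, or 74% and 28%. The highest recovered hydrated level was also found here. Upstream of Pp1s23_230V6, the level was 96% in the hydrated and 43% in the partially rehydrated library, the largest recovered difference. Downstream of Pp1s115_194V6 it was 86% and 39%, upstream of Pp1s208_62V6 it was 71% and 28%, and upstream of Pp1s19_93V6 it was 61% and 29%. Downstream of Pp1s146_68V6 and Pp1s224_28V6, methylation was 2.43-fold and 2.14-fold lower. The higher region lay downstream of Pp1s74_70V6, at 1.05 in the authors' deposited table. Of the 26 regions linked to an annotated gene, 22 were lower, with a median size of 1.40 on the log2 scale, and of the 14 others 13 were lower, with a median size of 1.22.

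The regions were short and scattered. They were 200 to 867 bases long with a median of 303.5 (309.5 over the whole table), and 4 reached 500 bases. They lay on 38 scaffolds, of which 36 held 1 region and 2, scaffolds 439 and 508, held a nested pair. By gene part, 19 of the 49 gene and region entries lay upstream (16 lower), 12 in the body (11 lower) and 18 downstream (16 lower), so lower entries outnumbered higher ones in each part. A region was linked to 1 gene in 32 cases, to 2 genes in 7 and to 3 in 1. The last, on scaffold 3 from 1833159 to 1833787, lay in the body of Pp1s3_289V6 and upstream of Pp1s3_291V6 and Pp1s3_292V6. Its possible levels were 49% and 22%, or 98% and 44%. The region downstream of Pp1s259_102V6 was also downstream of its neighbour Pp1s259_103V6, and that upstream of the PsbW gene was upstream of Pp1s71_60V6 too. For such regions the table gives no ground to link the difference to one gene rather than another.

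The other libraries listed few of the same genes. No gene or region of partial rehydration was listed for moderate dehydration, with 38 genes, or severe dehydration, with 30 genes. With full rehydration 8 genes were shared, which is 17.4% of the partial and 6.3% of the 127 full rehydration genes. Because the number of genes tested is not given, the overlap that unrelated lists of these lengths would have is unknown. Neither the 0 shared genes nor the 8 are therefore read as a result about the states. By position, 6 of the 40 regions (15%) shared at least 1 base with 5 of the 132 full rehydration regions (3.79%). Both comparisons used the same hydrated library, so the values are set side by side without a test. At 3 loci the direction was the same in both. Upstream of the EREBP-like gene Pp1s120_13V6, the authors' deposited table gave -1.58 for partial and -4.07 for full rehydration, where the longer region stood at 67% in the hydrated and 4% in the fully rehydrated library. At Pp1s18_5V6 and the RPS2-like Pp1s18_7V6, the partial rehydration region was 2.5-fold lower. For a full rehydration region that covers it, recovered levels were 27% in the hydrated and 0 in the fully rehydrated library. A second full rehydration region, 518 bases away, stood at -1.04 in the authors' deposited table. Upstream of the peptidase gene Pp1s439_5V6, the region with identical ends had hydrated, partially and fully rehydrated levels in the ratio 3 to 16 to 13, from 3%, 16% and 13% up to 18%, 96% and 78%. The 2 rehydrated libraries were thus closer to each other there than to the hydrated one.

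At the other 3 loci the listed directions were opposite. In the body of the RPS2-like gene Pp1s95_7V6, the authors' deposited table gave -1.52 for partial and 1.95 for full rehydration, in regions that shared 106 bases. The full rehydration region began upstream of the other on the scaffold and had a smallest possible pair of 8% hydrated and 31% fully rehydrated. At Pp1s508_5V6 and Pp1s508_6V6, the authors' deposited table gave -1.26 for the outer partial rehydration region and 1.04 for a full rehydration region that ended on its first base. The latter had possible levels of 19% and 39%, or 38% and 78%. Downstream of the unannotated gene Pp1s489_26V6, the partial rehydration region stood at 52% in the hydrated and 25% in the partially rehydrated library, while 2 full rehydration regions that ended 913 and 672 bases before it were 2.06-fold and exactly 2-fold higher in the authors' deposited table. The regions at Pp1s489_26V6 shared no base and those at Pp1s508_5V6 at most 1, so the opposite signs there belong to different stretches of DNA. At Pp1s95_7V6 the 106 shared bases lie in both regions, and the ratio of those bases alone is not given.

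**Figure D3:**
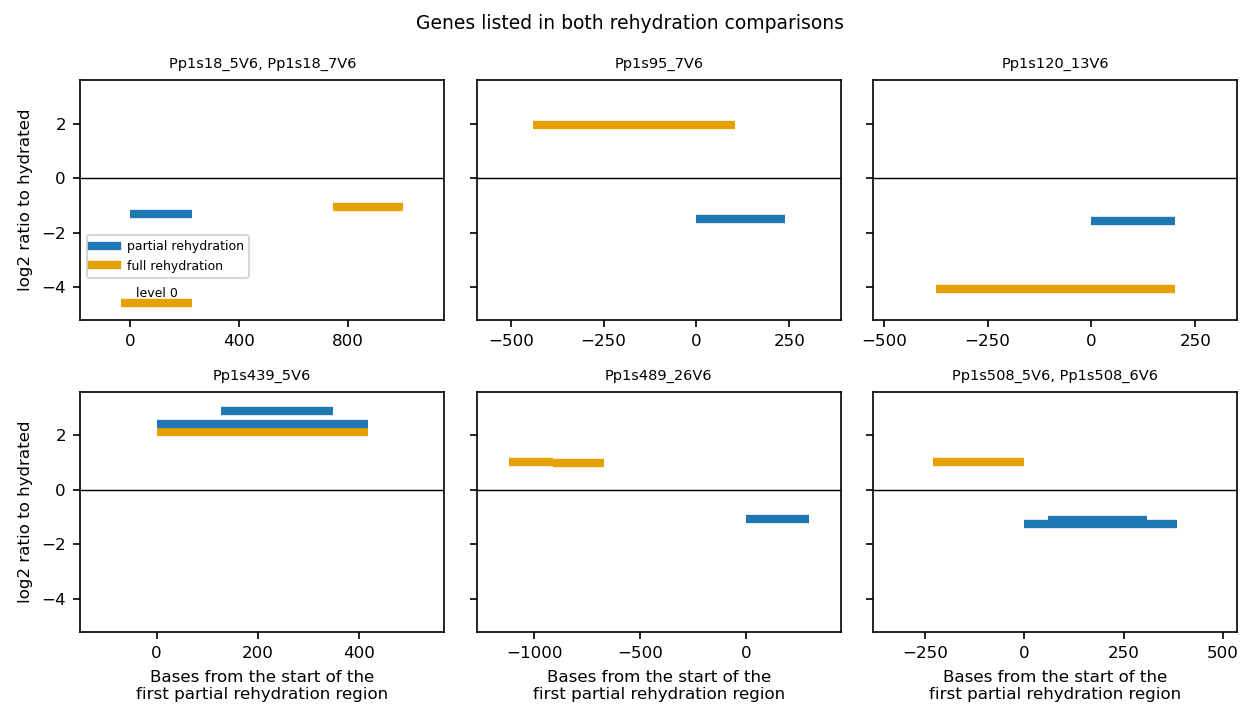
Regions of partial (blue) and full (orange) rehydration at the 6 loci whose genes were listed in both, drawn by their distance in bases from the start of the first partial rehydration region and by their log2 ratio to the hydrated library. Bars lie on the same side of the zero line at Pp1s18_5V6 and Pp1s18_7V6, Pp1s120_13V6 and Pp1s439_5V6, and on opposite sides at Pp1s95_7V6, Pp1s489_26V6 and the pair Pp1s508_5V6 and Pp1s508_6V6; the bar marked level 0 is off scale.

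Beside the other lists, the share of lower regions was 87.5% in partial rehydration, 30% of 30 regions in moderate dehydration, 45.5% of 22 in severe dehydration and 43.9% of 132 in full rehydration, and 50% over all 224. The 95% exact intervals, which cover counting error over the lists only, were 73.2 to 95.8, 14.7 to 49.4, 24.4 to 67.8 and 35.3 to 52.8. With 1 library per state, a difference between states and a difference between libraries cannot be told apart. In gene bodies, 11 of 12 entries were lower in partial rehydration, 0 of 3 in moderate dehydration, 2 of 4 in severe dehydration and 7 of 25 in full rehydration. A level of 0 was read from the ratio in 1 of 40 regions of partial rehydration. It was read in 2 of 30 in moderate dehydration, 0 of 22 in severe dehydration and 19 of 132 in full rehydration. On the log2 scale, the median size was 1.49 in moderate dehydration, 1.57 in severe dehydration and 1.58 in full rehydration.

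**Figure D4:**
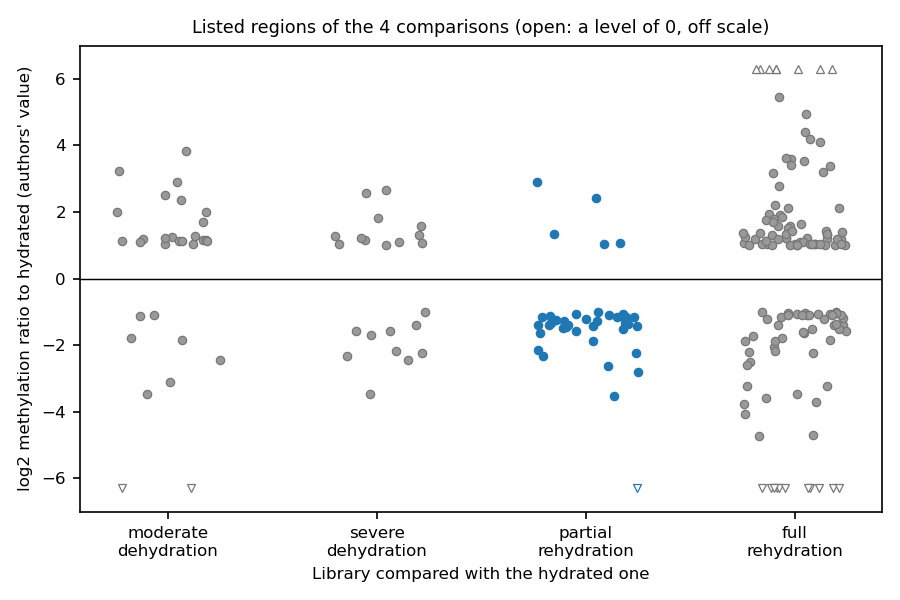
Log2 ratio to the hydrated library of every listed region in the 4 comparisons, 1 point per region, spread sideways at random, with partial rehydration in blue. Partial rehydration has 35 points below the zero line and 5 above it; open triangles are regions with a level of 0, drawn off scale.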

How the data were processed

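Bisulfite sequencing was run on 1 library per state. Sonicated DNA received methylated adaptors, bisulfite treatment with a kit and PCR, per the labels' protocols. The authors deposited a table of text cells that hold their own log2 ratio of methylation for each region. The sources used here name no aligner, region caller, threshold, build, cytosine context or coverage, so the depth is unknown and no interval is given for a ratio. How PCR duplicates and incomplete conversion were treated is likewise not given.

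Cells were split into gene part, start, end, log2 ratio and direction with Python 3.11.15. The direction word matched the sign in all 49 entries. Regions with the same ends were counted once. Levels were taken back from each ratio as whole percents. The code of this step was checked on simulated whole-percent levels, which cannot show that the authors' levels were rounded in that way. Regions count as shared from 1 base. Exact 95% Clopper-Pearson intervals came from SciPy 1.17.1. The reference gene table held 0 of the 46 identifiers. No statistical test between states was run.

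Genes were named where they had an annotation, a higher region, a level of 0, several regions or an entry in another comparison, besides the 5 largest without annotation. The rest were named after their values were seen. The members, the keyword lists and the alternatives (unit counted, merging, size, levels of 0, overlap, rounding) were chosen with earlier results of these data known.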

Additional observations from a re-analysis of the deposited data

Results flagged for a closer look

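The partial and full rehydration regions of 3 loci stood on opposite sides of the hydrated level, each from 1 library, and the differences were not tested. Since only log2 ratios of at least 1 in size were listed, opposite signs alone give a difference of at least 2. The ratios also belong to different stretches of DNA, which shared 106 bases at Pp1s95_7V6, at most 1 at Pp1s508_5V6 and 0 at Pp1s489_26V6. As full minus partial rehydration on the log2 scale, the difference was 3.47 in the body of the RPS2-like gene Pp1s95_7V6. It was 2.30 and 2.15 for the outer and inner region at the RPM1-like gene Pp1s508_5V6 and its neighbour Pp1s508_6V6, and 2.10 and 2.06 for the 2 full rehydration regions downstream of Pp1s489_26V6.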

How the results depend on the processing

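No paired analysis was possible because each state has 1 library, and for the same reason no library could be left out. The share of lower regions was 87.5% with each region counted once and 84.6% to 89.5% under the 5 alternatives (every entry, overlapping regions merged, a log2 size of 1.5 or more, no level of 0, and 1 value per gene). The median size was 1.34 to 1.37 with every entry, with merged regions and without a level of 0, and 2.32 over the 13 regions with a log2 size of 1.5 or more, which removes the smaller ones by construction. Regions that overlap another comparison numbered 6 at 1 shared base and 4 when 50% of the shorter region had to be shared. Gene body entries numbered 12, or 11 loci after merging. Both levels were recovered for 11 regions with whole percents and for 0 if levels had 1 decimal, so the printed levels rest on the reading of whole percents. The numerator of the ratios was chosen on the same reading, so the direction and the share of lower regions rest on it too. The unknown depth limits every ratio, most of all where a low level or a level of 0 enters it.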
